A study of Mus musculus with 2 samples.

Results

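The macroH2A1.1 regions of mouse chromosome 7 were examined in C2C12 cells, an established myoblast line that fuses into myotubes when serum is withdrawn. They are all regions which the deposited list places on that chromosome in the build mm9, 1103 of 50887 in all. No measured value was used to choose among them, but the chromosome itself was chosen with earlier results of these data known. The values below therefore describe this chromosome and do not test whether it stands out. The other 18 autosomes hold 47944 regions and serve as the comparison throughout. The list was made from 1 library of chromatin precipitated with an antibody against macroH2A1.1 and 1 library of input chromatin without antibody, both wild type. The labels name myoblast as the source of both, whereas their short descriptions carry DM, the abbreviation that the growth protocol uses for differentiation medium with 2% horse serum, and the study speaks of myotubes. A region list holds no marker of the cell state, so this was not resolved here. C2C12 is a single cell line and each group holds 1 library, so none of the values below has an error between replicates, and regions of 1 chromosome are not replicates of a condition.

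MacroH2A1 is a histone variant that replaces the common H2A in some nucleosomes and carries a large globular macrodomain behind its histone fold. Splicing gives it as macroH2A1.1 or macroH2A1.2, and the macrodomain of macroH2A1.1 is the one that binds ADP-ribose. MacroH2A is found in broad stretches of chromatin, often over silent genes, and is known for its accumulation on the inactive X chromosome. Mouse autosomes carry their centromere at one end, where positions start to count. Chromosome 7 is rich in genes. In the later build GRCm38 it carries 13.9 protein-coding genes per Mb, against 8.11 on the other autosomes pooled and 13.4 on chromosome 11, the next highest. Among them are 244 olfactory receptor genes, which encode odorant receptors of the nose, and 154 vomeronasal receptor genes, which encode pheromone receptors. Together these come to 2.74 per Mb, against 0.456 on the other autosomes pooled and 1.61 on chromosome 2, the next highest. Chromosome 2 holds more olfactory receptor genes than chromosome 7, with 294. Muscle genes such as Myod1, which encodes a master regulator of the muscle lineage, and Ckm, which encodes muscle creatine kinase, also lie there, as do the imprinted genes Igf2 and H19. The last region of the list on chromosome 7 ended 7083141 bp past the end of this chromosome in GRCm38, the build of the genome at hand. Therefore, neither the bases of a region nor its distance to any of these genes was read, and the part of the gene content in the results below was not tested.

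The regions of chromosome 7 were few. They covered 3991 kb, which was 2.62% of its length up to the highest region end, with 7.23 regions per Mb. The other autosomes pooled were covered at 9.40% with 20.7 regions per Mb, and single autosomes ranged from 6.55% on chromosome 14 to 19.7% on chromosome 15. All 18 thus lay above chromosome 7, whose covered share was 0.279 times that of the pool. The size of this difference depended on how strongly a region had to be enriched. Enrichment here is the number of ChIP reads over the number of input reads after division by the library factor of 1.45, as deposited for each region. Among regions enriched 2-fold or more the ratio of covered shares was 0.388, among those of 3-fold or more it was 0.700, and among those of 4-fold or more it was 1.19, which places chromosome 7 above the pool. Among regions with 30 ChIP reads per kb or more it was 0.144. This ratio is one of covered length. By number such regions were about as frequent in both sets, as 30 reads per kb lay between the 95th and the 96th percentile in each.

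The regions were then sorted into classes of enrichment, which were set after the values had been seen. On chromosome 7, 55 regions were enriched under 1.5-fold, which came to 0.361 per Mb, against 2.39 per Mb on the other autosomes pooled and at least 1.35 on each of them. The next class, from 1.5-fold to 2-fold, had 151 regions or 0.990 per Mb, against 5.76 in the pool. From 2-fold to 3-fold there were 402 regions, or 2.64 per Mb against 8.23, and from 3-fold to 4-fold there were 224, or 1.47 against 2.71. In each of these 4 classes chromosome 7 lay below all 18 other autosomes. In the class of 4-fold and over it had 271 regions, or 1.78 per Mb, against 1.65 in the pool, and 15 of the 18 other autosomes lay below it. The shortage of regions was thus largest among weakly enriched ones, with a ratio to the pool that rose from 0.151 in the lowest class to 1.08 in the highest. Input reads enter the calling of regions and are also the denominator of the enrichment. The part of the lower input density of chromosome 7, given below, in this pattern was not tested.

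**Figure D1:**
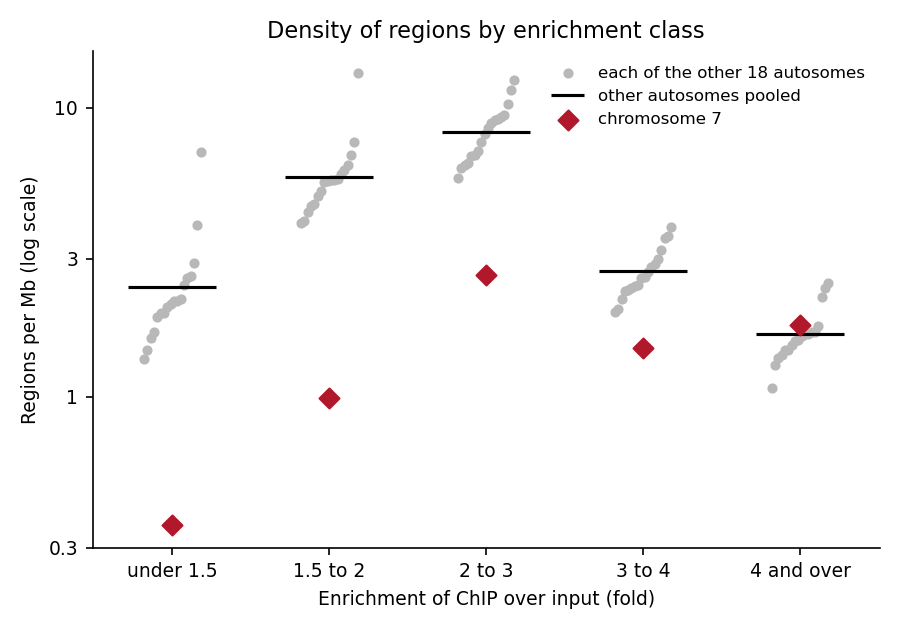
Regions per Mb (y axis, log scale) in 5 classes of enrichment of ChIP over input (x axis), with chromosome 7 as a diamond, each of the other 18 autosomes as a grey point and the pool of these as a black line. Chromosome 7 lies below every other autosome in the first 4 classes and slightly above the pool in the class of 4-fold and over, at 1.78 against 1.65 regions per Mb.

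Taken as shares, 897 regions of chromosome 7 (81.3%) were enriched 2-fold or more, beside 61.3% of all regions in the list, and 271 (24.6%) were enriched 4-fold or more, beside 8.34%. The share of 2-fold regions ranged from 44.1% to 67.2% on the other autosomes and the share of 4-fold regions from 2.97% to 10.9%. An exact binomial test set the ChIP reads against the input reads of a region, which compares the 2 libraries and not conditions. In it, 1049 regions of chromosome 7 (95.1%) had an FDR of 0.05 or less over the list, beside 90.1% of all regions. Every listed region already had an FDR below 0.05 by the caller from the same reads. High shares were thus set beforehand and are no independent support for the regions. The median enrichment was 2.82-fold on chromosome 7, with quartiles at 2.19-fold and 3.98-fold, and 2.20-fold in the pool. With all reads of its regions summed, chromosome 7 had 79502 ChIP reads and 20203 input reads, and an enrichment of 2.71-fold (95% exact interval 2.67 to 2.76). The pool had 2.12-fold (2.111 to 2.119), and single autosomes ranged from 1.82-fold on chromosome 8 to 2.32-fold on chromosome 9. Such intervals reflect counting error alone, and copies made by PCR are not molecules counted independently.

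The higher enrichment went along with fewer input reads rather than with more ChIP reads. Reads per kb of region are not scaled for library size, so each library was compared with itself. A region on chromosome 7 had 4.84 input reads per kb in the median, with quartiles at 3.57 and 6.11. The pool had 6.43 (5.0 and 7.98), and the medians of the other autosomes lay between 6.0 and 7.81. The median of ChIP reads per kb was 19.5 (17.5 and 22.6) on chromosome 7 and 20.5 (18.3 and 23.4) in the pool, with medians from 20.0 to 21.7 on the other autosomes. Hence both libraries were lowest on chromosome 7, at 0.753 times the pooled median for the input and 0.952 times for the ChIP. With reads summed, the input came to 5.06 reads per kb (95% exact Poisson interval 4.99 to 5.13) against 7.02 (7.01 to 7.03), and the ChIP to 19.9 (19.8 to 20.1) against 21.5 (21.51 to 21.55). The low end of ChIP density differed about as much as the median. Its 10th percentile was 16.0 reads per kb on chromosome 7, or 0.958 times that of the pool, and between 16.6 and 17.5 on the others. The list gives reads inside regions only, so the input depth of chromosome 7 outside them is not known here.

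**Figure D2:**
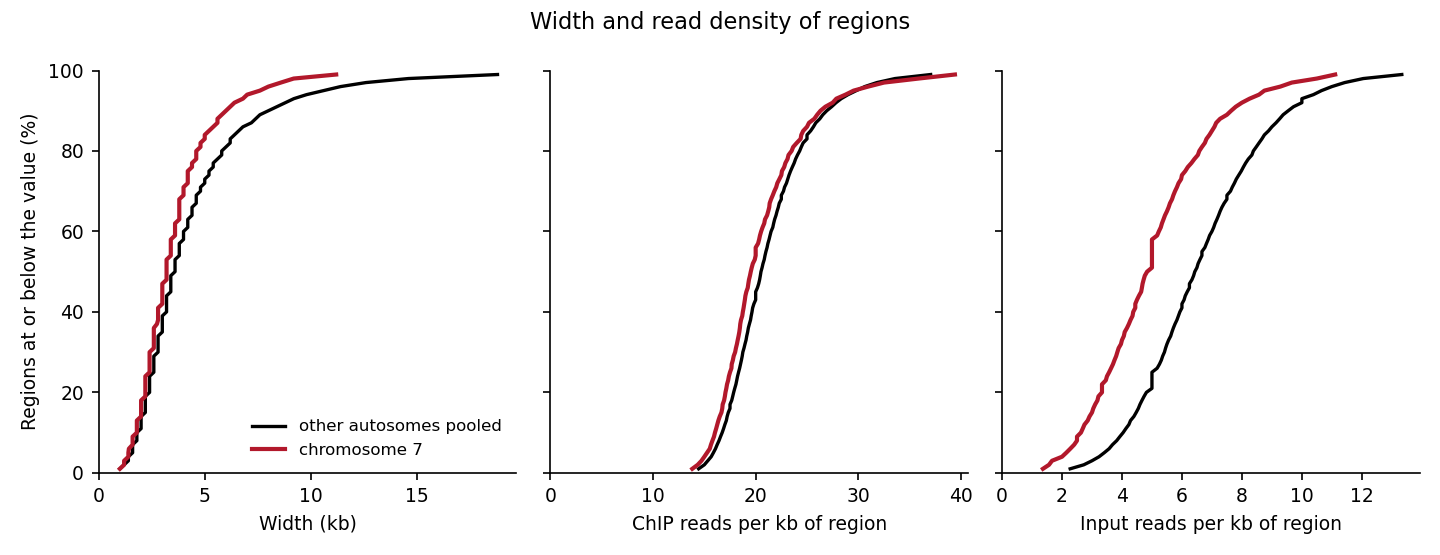
Percentage of regions at or below a value (y axis), from the 1st to the 99th percentile, for width in kb, ChIP reads per kb and input reads per kb (x axes), with chromosome 7 in red and the other autosomes pooled in black. The ChIP curves lie close together, with medians of 19.5 and 20.5, and the input curve of chromosome 7 lies to the left, with a median of 4.84 against 6.43.

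At like input density the regions of chromosome 7 and of the other autosomes were close in enrichment. Between 4 and 6 input reads per kb, a band with 451 regions of chromosome 7, the median enrichment was 2.68-fold against 2.76-fold in the pool. It was 4.43-fold against 4.31-fold between 2 and 4 input reads per kb (315 regions), 1.98-fold against 2.03-fold between 6 and 8 (206 regions), and 1.505-fold against 1.57-fold at 8 and over (91 regions). Under 2 input reads per kb, 40 regions of chromosome 7 had a median of 10.5-fold and 271 of the pool had 10.3-fold. What differed was how the regions spread over the bands. The lowest band held 3.63% of the regions of chromosome 7 against 0.565% of the pool, and the band from 2 to 4 held 28.6% against 8.75%. The band of 8 and over held 8.25% against 24.97%. The input count is the denominator of the enrichment, so these bands describe the 2 measures together.

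The regions of chromosome 7 were also narrow. Their median width was 3200 bp, with quartiles at 2400 and 4200 bp, against 3600 bp (2600 and 5200) in the pool, and the medians of the other autosomes lay between 3400 and 4000 bp. The difference was largest in the wide regions. Only 18 regions (1.63%) were wider than 10 kb, against 5.58% of the pool and no less than 2.98% on any other autosome, and only 1 was wider than 20 kb. The narrow end differed less, with a 10th percentile of 1800 bp in both sets. Regions up to 2 kb wide made up 18.9% on chromosome 7 and 14.9% in the pool. At like width the input density and the enrichment of chromosome 7 kept their distance from the pool. Among regions over 2 kb and up to 4 kb wide, 583 on chromosome 7 had medians of 4.69 input reads per kb and 2.80-fold, against 6.25 and 2.20-fold. Among the 43 regions over 8 kb the medians were 5.52 input reads per kb and 2.84-fold, against 7.14 and 2.10-fold.

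The widest region of chromosome 7 extended over 23.0 kb, from 35483001 to 35506000. It held 526 ChIP reads over 127 input reads and was enriched 2.86-fold (95% exact interval 2.35 to 3.50). It is the single region over 20 kb, and it did not lie alone. A region of 8.6 kb ended 1400 bp before it, enriched 3.16-fold (2.21 to 4.61) from 174 ChIP reads and 38 input reads, and one of 4.6 kb started 3200 bp behind it, enriched 3.10-fold (1.72 to 6.0) from 63 and 14 reads. The second widest region, of 17.0 kb from 122621201 to 122638200, had 396 over 74 reads and was enriched 3.69-fold (2.87 to 4.80). Only 1000 bp before it ended one of the most enriched regions of the chromosome, from 122616801 to 122620200, with 70 ChIP reads over 4 input reads and an enrichment of 12.1-fold (4.51 to 45.5). Their intervals overlap between 4.51 and 4.80.

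Of the next widest regions, 2 were weakly enriched. The third, of 13.0 kb from 73979801 to 73992800, had 285 ChIP reads over 144 input reads, the most input reads of any region on the chromosome, and an enrichment of 1.37-fold (1.11 to 1.68). The next, of 12.6 kb from 35960201 to 35972800, had 256 over 112 reads and 1.58-fold (1.26 to 1.99). The fifth, of 12.4 kb from 90336001 to 90348400, had 198 over 53 reads and 2.58-fold (1.89 to 3.56). Wide regions of chromosome 7 thus ranged from weak to strong, and the intervals of the third and the fourth lay below that of the second.

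The highest enrichment was found in regions of 2.0 to 3.8 kb, when fewer than 3 input reads were raised to a floor of 3. A region from 134499601 to 134503000 had 122 ChIP reads over 5 input reads, or 16.8-fold (95% exact interval 7.02 to 52.8). A region from 73733801 to 73736000 had 56 over 3 reads and 12.9-fold (4.19 to 64.3). It was followed by a region from 150335801 to 150339600 with 72 over 4 reads and 12.4-fold (4.64 to 46.8), by the one beside the second widest region, and by one from 80859001 to 80861000 with 48 over 3 reads and 11.0-fold (3.56 to 55.4). Their order is not resolved, because all of these intervals overlap.

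No input read was found in 3 regions, to which the caller had given an input of 0.25. The region from 146938001 to 146939200 had 39 ChIP reads, which is 8.97-fold against a floor of 3 input reads per region, with a 95% exact interval starting at 6.95-fold. The one from 108227801 to 108228800 had 30, with 6.90-fold against the floor and a lower limit of 5.27-fold. The one from 29876601 to 29876800, the only region of 200 bp on the chromosome, had 17, with 3.91-fold and a lower limit of 2.85-fold. Measured by ChIP reads per kb, the densest region was one of 400 bp from 73383001 to 73383400. It held 46 ChIP reads over 2 input reads, or 115 ChIP reads per kb, a width at which few reads set the density. The region of 200 bp came next with 85.0 ChIP reads per kb, and one of 600 bp from 108570401 to 108571000 followed with 48.3, from 29 over 3 reads.

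At the other end, the regions with the most input reads per kb were weakly enriched. The first lay from 58875801 to 58878000, with 36 input reads or 16.4 per kb, 72 ChIP reads and an enrichment of 1.38-fold (0.912 to 2.12). The second lay from 121847801 to 121848800, with 14 input reads or 14.0 per kb and 1.72-fold (0.905 to 3.47), and the third from 19867401 to 19870400, with 39 input reads or 13.0 per kb and 1.49-fold (1.005 to 2.23). The intervals of the first and the second include 1, and their FDR in the exact binomial test was 0.0725 and 0.0577, although the caller gave 0.00444 and 0.00127. The caller takes the input count as free of error. Over the chromosome, the lower limit of the interval was above 1 in 1016 regions and above 2-fold in 306 (27.7%). These counts were not made for the other autosomes, so they do not set chromosome 7 apart. A high count above 1 was set beforehand, because the regions had passed the caller on the same reads.

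Next, the position of the regions along the chromosome was examined. They were shifted away from the centromere end. The first 50% of the length held 24.8% of the regions of chromosome 7, whereas on the other autosomes this share ranged from 36.1% on chromosome 11 to 55.5% on chromosome 16. The change in density lay near 70 Mb, a position that was set after the values had been seen. Up to 70 Mb there were 153 regions, or 2.19 per Mb, with a covered share of 0.761%. Past 70 Mb there were 950, or 11.5 per Mb, with a covered share of 4.19%. Over the same stretches the other autosomes pooled had 19.4 and 22.4 regions per Mb, and were covered at 8.59% and 10.3%. The covered share of chromosome 7 was therefore 0.0885 times that of the pool up to 70 Mb and 0.405 times past it, so it was low in both parts and lower in the first.

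**Figure D3:**
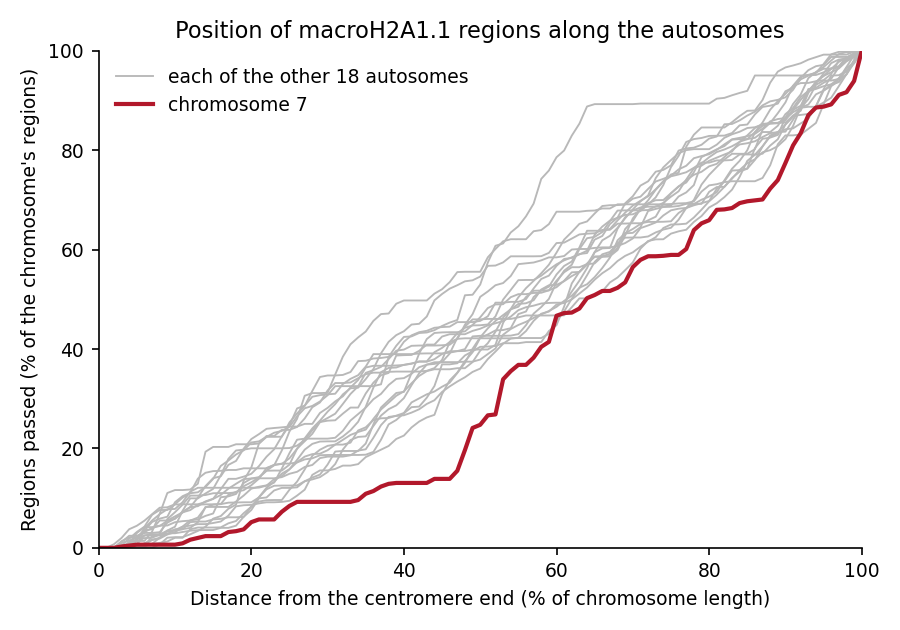
Percentage of a chromosome's regions passed (y axis) with distance from the centromere end in percent of chromosome length (x axis), for chromosome 7 in red and each of the other 18 autosomes in grey. Chromosome 7 reaches 24.8% of its regions at 50% of its length, where the lowest of the others stands at 36.1%.

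Regions of 4-fold and over followed the same split. There were 35 of them up to 70 Mb, or 0.50 per Mb, against 1.51 in the pool, and 236 past 70 Mb, or 2.86 per Mb, against 1.81. The number of regions of 4-fold and over was thus low in the first part and high in the second, and only their sum was near the pool. Over the whole chromosome, regions of 4-fold and over had medians of 21.8 ChIP and 2.78 input reads per kb. Those under 4-fold had 18.9 and 5.33. In the pool the medians were 24.4 and 3.33 at 4-fold and over, and 20.3 and 6.67 under it. Regions of 4-fold and over thus had the higher ChIP density in both sets. Their ChIP density was lower on chromosome 7 than in the pool. Regions under 2-fold came to 0.643 per Mb in the first part, against 7.58 in the pool, and to 1.95 in the second, against 8.83, so that they were few in both. As shares of the regions in each part they were 29.4% and 16.9%, against 39.1% and 39.5% in the pool. The input density was below the pool in both parts, and lower in the second. Its median was 5.16 reads per kb up to 70 Mb and 4.75 past it, against 6.43 and 6.46 in the pool. With reads summed it was 5.57 reads per kb (95% exact Poisson interval 5.37 to 5.77) and 4.98 (4.91 to 5.06). These intervals hold counting error only and leave out the spread between regions. The quartiles of single regions overlapped widely, at 3.75 and 7.08 up to 70 Mb and 3.57 and 6.0 past it. The pool moved the other way, from 6.78 to 7.26. The median enrichment was 2.76-fold and 2.84-fold, against 2.20-fold and 2.19-fold.

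In segments of 10 Mb, numbers of regions went from 0 to 176. The segments from the centromere end up to 40 Mb held 7, 17, 31 and 47 regions in order. None was found from 40 to 50 Mb, 42 from 50 to 60 Mb and 9 from 60 to 70 Mb. The next segment, from 70 to 80 Mb, held the most, with 176 regions and a covered share of 6.49%. Numbers then went down from 128 to 56 over the segments between 80 and 130 Mb, and came to 151 from 130 to 140 Mb and 98 from 140 to 150 Mb. With reads summed, the input density was highest in the first segment, at 6.52 reads per kb, and lowest from 120 to 130 Mb, at 4.45. The median input density per segment lay between 4.30 reads per kb, from 120 to 130 Mb, and 7.14, from 0 to 10 Mb, where it rests on 7 regions. Leaving that segment aside it was between 4.30 and 5.63, so each of these segments stayed below the pooled median of 6.43. Median enrichment lay between 2.48-fold and 3.10-fold.

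**Figure D4:**
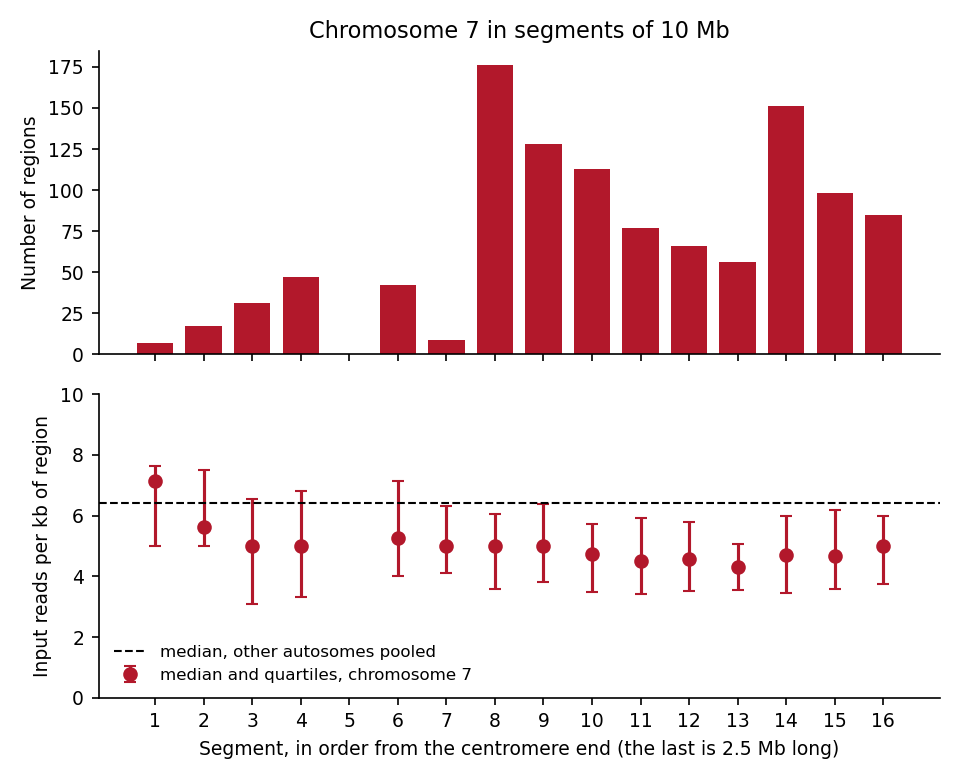
Upper panel, number of regions of chromosome 7 in segments of 10 Mb, in order from the centromere end. Lower panel, input reads per kb of region as medians with quartiles, and the median of the other autosomes pooled as a dashed line. The eighth segment has the most regions, 176, the fifth has none, and all medians but that of the first segment lie below the dashed line at 6.43.

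The end of the chromosome was dense. The last segment, 2.5 Mb long, held 85 regions, and the last region, from 152522201 to 152524600, had 70 ChIP reads over 10 input reads and an enrichment of 4.83-fold (95% exact interval 2.48 to 10.5). Over the last 2.5 Mb before its highest region end, chromosome 7 was covered at 13.2%, which was 5.06 times its own covered share. On the other autosomes this ratio ranged from 0.0497 to 2.48, with a median of 1.03. The covered share itself was not outstanding, since 8 of the 18 other autosomes had more. The first region lay at the opposite end from 3151401 to 3152600, with 35 ChIP reads over 6 input reads and 4.02-fold (1.67 to 11.7).

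Bins of 1 Mb were used to find where regions were missing. A region was counted in the bin of its midpoint. Of the 153 bins of chromosome 7, 55 (35.9%) had none, against 19.3% in the pool. This was the highest share of the 19 autosomes, though it was close to that of chromosome 14, where 44 of 125 bins (35.2%) were empty. The other autosomes ranged from 9.84% upwards. The 98 filled bins also held fewer regions than those of the pool, with a median of 9 against 21. Of these, 15 (15.3%) had 20 regions or more, against 53.2% of the filled bins in the pool. Of the empty bins 40 lay in the first 70 bins and 15 in the other 83, which is 57.1% and 18.1%. In the pool 23.1% of the bins up to 70 Mb were empty. No region of any autosome began before 3007001, so the first 3 bins of each were empty and count in all these shares. The longest runs of empty bins extended from 40 to 50 Mb and from 7 to 16 Mb, and the next from 60 to 65 Mb.

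The stretches behind these runs were measured from one region to the next. The longest lay between 39036000 and 50798201 and spanned 11.8 Mb, or 7.71% of the chromosome. It began behind a region of 800 bp, from 39035201, with 30 ChIP reads over 2 input reads, which is 6.90-fold against the floor of 3 input reads and 10.3-fold (2.63 to 89.3) from the counts themselves. It ended at a region of 7.0 kb, up to 50805200, with 144 over 28 reads and 3.55-fold (2.35 to 5.52). A stretch of 9.81 Mb followed in size, between 6865800 and 16673801. The regions beside it, from 6864401 and up to 16681400, had 39 over 11 reads and 114 over 27 reads and were enriched 2.45-fold (1.23 to 5.29) and 2.91-fold (1.90 to 4.61). The intervals at the borders of the 2 longest stretches all lay above 1. Listed regions had passed the caller on the same reads, so this is no independent support for these borders.

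A stretch of 6.64 Mb lay between 59008400 and 65644001, and one of 4.93 Mb between 65879200 and 70806801. The short interval between them held the few regions of the segment from 60 to 70 Mb. Their borders were enriched 2.46-fold (1.53 to 4.09) at 59004001, 2.76-fold (1.75 to 4.51) up to 65647800, 1.59-fold (1.02 to 2.52) at 65875001 and 2.81-fold (1.54 to 5.46) up to 70810200. The fifth stretch, of 4.09 Mb, lay between 20461200 and 24552401. Before it lay a region with 50 ChIP reads over 8 input reads and 4.31-fold (2.03 to 10.5), from 20458001. Behind it lay one of the least certain regions of the chromosome, up to 24554400, with 43 over 23 reads and 1.29-fold (0.760 to 2.24). Its FDR was 0.0489 by the caller and 0.195 in the exact binomial test. These 5 stretches made up 37.2 Mb, or 24.4% of the chromosome, and all lay at least in part before 70 Mb.

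Over all neighbouring regions of chromosome 7 the median distance was 12.4 kb, with quartiles at 3.60 and 49.8 kb, against 5.40 kb in the pool. The medians of the other autosomes lay between 3.60 and 7.0 kb. The longest distance of chromosome 7 was hardly longer than that of chromosome 14, with 11.8 against 11.7 Mb. Distances over 1 Mb numbered 29 (2.63%) and added up to 81.6 Mb, or 53.5% of the length. In the pool 0.626% of the distances were over 1 Mb and added up to 30.0% of the length. A stretch without a region is one in which nothing was called at this depth, which does not show that macroH2A1.1 was absent. Assembly gaps and sequence that reads cannot be aligned to uniquely were not examined, and their part in these stretches was not tested.

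The 5 bins with the most covered length all lay past 70 Mb. The bin from 90 to 91 Mb was covered over 202.8 kb by 53 regions, with medians of 5.0 input reads per kb and 2.85-fold. It contains the fifth of the widest regions. The bins from 137 to 138 Mb and from 80 to 81 Mb followed with 164.8 and 164.6 kb, then that from 152 to 153 Mb at the chromosome end with 150.8 kb, and that from 73 to 74 Mb with 148.4 kb. Median enrichment in these bins was between 2.47-fold and 3.01-fold, and the input density between 4.71 and 5.37 reads per kb. Even the fullest bin of chromosome 7 was below that of every other autosome, among which the lowest was 392.4 kb on chromosome 17.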

How the data were processed

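ChIP and input DNA from C2C12 cells were sequenced as single reads, 1 library each. Per the labels and the study's methods, the authors aligned reads to mm9 with Bowtie2 2.0.6 and called broad regions with SICER, and the file is named after epic, a re-implementation. The deposited read counts per region are not scaled for library size. Log2 fold changes, as deposited, compare ChIP with input reads after division by a library factor of 1.45, and the deposited score is 100 times that log2 value. The p-value and FDR are the authors' caller's and were used only to filter. Positions are given 1-based. Library totals were not used here, so depth outside regions is unknown.

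Regions were assigned to chromosomes, bins and segments with Python 3.11.15, pandas 2.3.3 and SciPy 1.17.1. Chromosome length was taken as the highest region end. Intervals of enrichment were computed with the exact Clopper-Pearson method at 95% from the share of ChIP among the reads of a region, and cover counting error only. The exact binomial test was one-sided, with Benjamini-Hochberg adjustment over the 50887 listed regions. No test was made between chromosomes. The scripts were tested on simulated data. Named regions are the 5 most enriched, the 5 widest, the 3 with most ChIP and the 3 with most input reads per kb, the first, the last, those beside the 5 longest stretches without a region, and the 5 bins with most covered length; regions without input reads and the neighbours of the 2 widest were added after their values were seen. The chromosome, lists and rules were chosen with earlier results of these data known. The reference build was GRCm38, from which only chromosome lengths and gene numbers (GENCODE) were used, and no coordinate was converted.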

Additional observations from a re-analysis of the deposited data

How the results depend on the processing

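Of 43 values recomputed, 24 stayed within the interval of the value reported or within 1.5 times the count. These intervals treat windows of 200 bp, bins of 1 Mb or single regions as independent. Regions and empty bins lie clustered, so the intervals are not errors between replicates, and the count of 24 depends on them. The covered share of chromosome 7 relative to the other autosomes pooled, 0.279, was 0.283 at an FDR of 0.01, 0.388 among regions of 2-fold or more, 0.289 in the exact binomial test, 0.293 with chromosome lengths of GRCm38, 0.299 without chromosomes 8 and 15, 0.349 for regions per Mb and 0.144 with 30 ChIP reads per kb or more. Among settings chosen after seeing the data it was 0.700 at 3-fold or more, 0.0885 up to 70 Mb, 0.405 past 70 Mb and 1.19 at 4-fold or more, where its direction turned. With regions within 10 kb joined, 597 regions remained with a median width of 4200 bp. Among regions of 2-fold or more the medians were 20.0 ChIP reads per kb, 4.41 input reads per kb and 3.17-fold, as weak regions were removed. The share of empty bins was 50.7%, 24.7% and 12.9% in bins of 0.5, 2 and 5 Mb. For the remaining shifts the cause was not tested. Gene spans were not compared, for want of the mm9 build. No paired analysis was possible because there is 1 ChIP library and 1 input library. Depth limits single regions: the median region of chromosome 7 held 59 ChIP reads and 15 input reads, against 69 and 23 in the pool.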

Other observations

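Regions of chromosome 7 were seldom part of long chains. When regions up to 10 kb apart were joined, chromosome 7 had 597 chains, and 377 regions (34.2%) had no neighbour within that distance, against 17.4% of the regions of the other autosomes pooled. Chains of 10 regions or more numbered 5 and held 5.71% of the regions, against 26.9% in the pool. All 5 lay past 70 Mb. The one with the most regions stood at the end of the chromosome, from 152278001 to 152414000, where 16 regions covered 94.2 kb of 136.0 kb, with 2033 ChIP reads over 553 input reads and 2.54-fold (95% exact interval 2.31 to 2.79). A chain of 13 regions from 137119601 to 137214600 had 2.71-fold (2.36 to 3.11) and one of 12 from 117815801 to 117902400 had 3.25-fold (2.73 to 3.88). The 2 chains of 11 regions lay from 138137201 to 138200400 with 4.13-fold (3.45 to 4.98) and from 139569601 to 139634000 with 3.08-fold (2.60 to 3.67). Input density in the 5 chains lay between 3.98 and 5.87 reads per kb, and the highest value was that of the chain at the chromosome end. The longest chain of the other autosomes had 67 regions over 658.2 kb.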
